A study of Arabidopsis thaliana with 4 samples.

Results

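SWEET proteins, which carry sugars across membranes, are encoded by 14 of the 17 transporter genes that a search by gene symbol found on these arrays. The 17 are the genes whose symbol begins with the name of a transporter family and a number, and which have a probe set that the platform's annotation assigns to 1 gene. They are 17 of 13356 genes with such a probe set. The families searched carry sugars and polyols (SWEET, SUC, STP and PMT), diverse substrates at the cost of ATP (the ABC subfamilies), water and small solutes (PIP, TIP and NIP), nitrate, peptides and ammonium (NRT, NPF and AMT), sulfate and phosphate (SULTR and PHT), heavy metals (ZIP and HMA), potassium and sodium (KUP and HKT), and amino acids and oligopeptides (AAP, LHT and OPT). In the RefSeq annotation, 287 genes have a symbol of this form, a few of them of other proteins that share the letters, such as the PIP5K lipid kinases. The 17 consist of 14 SWEET genes, the nitrate transporter gene NRT2.5 and the zinc transporter genes ZIP6 and ZIP9. ABC transporters, aquaporins and the carriers of sulfate, phosphate, potassium, sodium, amino acids and oligopeptides were therefore not analysed here. The same holds for the sugar and polyol families SUC, STP and PMT, and for AMT and HMA. The platform's annotation leaves 8730 of the 22746 probe sets tested without a gene name. Each of the 17 genes had 1 probe set.

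SWEET proteins are uniporters: they let sugars cross a membrane down their concentration gradient, in either direction, without the use of energy. In Arabidopsis they fall into 4 clades. Members of clades I and II mainly carry hexoses, those of clade III mainly carry sucrose, and those of clade IV lie in the membrane of the vacuole. In a leaf, clade III proteins release sucrose from phloem parenchyma, from where it is loaded into the phloem, while vacuolar members exchange stored sugars with the cytosol. Other members serve pollen, nectaries and seeds, so that many genes of the family are known for expression outside leaves.

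The RNA came from green tissues of Arabidopsis thaliana, 20 days old by the labels, while the study's text gives a younger age. The 4 samples fall into 2 groups of 2 arrays each. One group is wild type of the Landsberg erecta (Ler) accession, and the other carries mutations in both GL3 and EGL3, which encode basic helix-loop-helix factors of trichome initiation. The titles of the gl3 egl3 samples name no accession, and no treatment is named for any sample. The double mutant forms no leaf hairs, and the comparison asks which transcripts differ between it and wild type in green tissues. In such whole tissue, fewer cells of a type and less RNA per cell cannot be told apart. Nor can an effect of the mutations be told apart from one of accession or tissue, should these differ between the groups. Each probe set has 1 expression value per array, on the log2 scale. Values under 3, where the background correction draws probe sets with little signal together, are called the low end of the scale.

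Median log2 values of the arrays ran from 4.92 to 4.99. The processing equalises the arrays by quantiles, so these medians say little about their raw signal. Pearson's correlation over all probe sets was 0.992 within either group and 0.985 to 0.989 between arrays of different groups. EGL3 lay at the low end on all 4 arrays, from 2.30 to 2.31, which leaves the genotype labels unchecked, and GL3 itself was not analysed here. Of the photosynthesis markers, RCA and LHCB4.1, the 2 measured of 6, lay between 12.48 and 13.39. Of 10 root markers, 3 were measured. The root hair expansin genes EXPA7 and EXPA18 were between 2.15 and 2.16, while PYK10, which encodes a beta-glucosidase of root ER bodies, lay between 10.04 and 11.04. All 6 trichome markers were measured, and of these SIM, which encodes a cell cycle inhibitor, was alone above the low end. It was at 6.37 and 6.64 in gl3 egl3 and at 6.35 on both wild type arrays, without overlap and not lower in the mutant (limma adjusted p = 0.793), so the trichome markers leave the labels unchecked too. The labels name green tissues for all 4 samples, whereas the methods name whole tissues for wild type. In either group both expansin genes were at the low end, while PYK10 was far above it. No marker of phloem or flowers was analysed here, and of the guard cell markers only MUTE was, at 3.51 to 3.83.

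Of the 17 transporter genes, 8 had a mean log2 value of 3 or more over the arrays and 9 lay at the low end, which also held 37.7% of all probe sets. The 8 genes above the low end were SWEET1, SWEET2, SWEET4, SWEET10, SWEET11, SWEET16, SWEET17 and ZIP6. None of the 17 genes passed the threshold for a difference between gl3 egl3 and wild type in limma, with adjusted p-values from 0.455 to 0.982. No probe set of the array did either (0% of 22746), and the smallest adjusted p over all of them was 0.0769. At an unadjusted limma p under 0.01, 0 of the 17 genes differed, against 3.25% of all probe sets. At an unadjusted p under 0.05, 1 of the 17 did, SWEET4, against 9.31% of all probe sets. It was lower in gl3 egl3, as were 3.72% of all probe sets at that level. The methods' t-test gave 0 of the 17 genes at an unadjusted p under 0.05. The median log2 difference of the 17 genes was -0.01, and that of all probe sets was 0.01. For the 8 genes above the low end it was -0.41, against 0.04 for all probe sets with a mean of 3 or more.

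**Figure D1:**
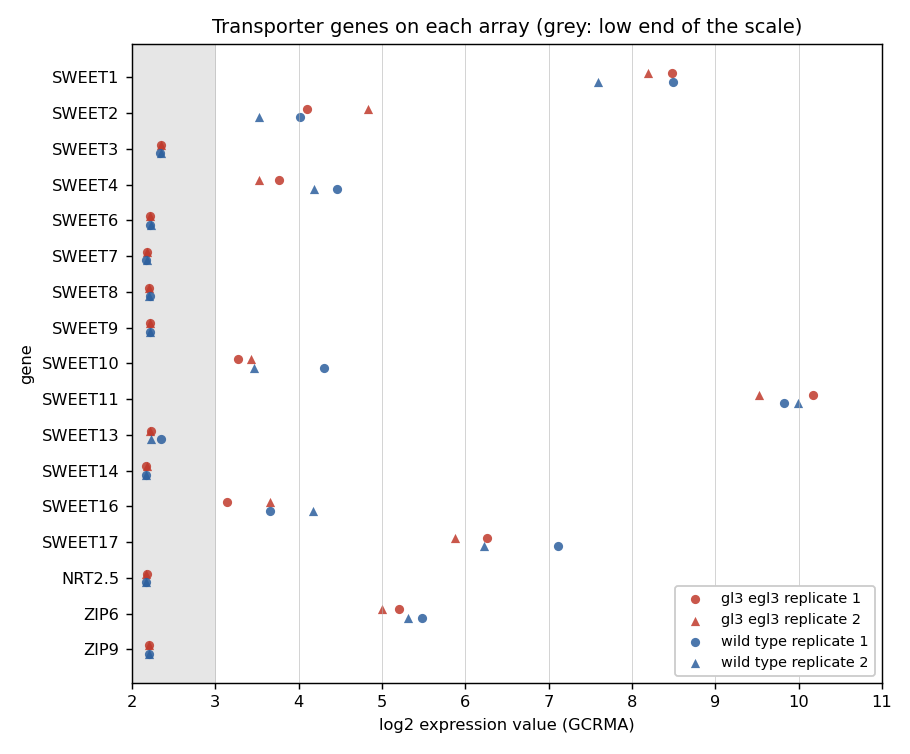
Log2 expression value (x axis) of each of the 17 transporter genes (y axis) on the 4 arrays, with gl3 egl3 in red and wild type in blue, circles for replicate 1 and triangles for replicate 2. The 9 genes inside the grey band lie at the low end on all arrays, and in most of the other 8 the colours mix or lie no further apart than the symbols of 1 colour.

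Among the hexose carriers of clade I, SWEET1 (AT1G21460), a glucose uniporter of the plasma membrane, had log2 values of 8.48 and 8.19 in gl3 egl3 and of 8.49 and 7.59 in wild type. The groups overlapped, with the highest and the lowest value both in wild type. The difference, given throughout as gl3 egl3 minus wild type, was 0.29 on the log2 scale (SE 0.41, 95% interval -1.13 to 1.71), smaller than the gap of 0.90 between the wild type arrays. Its direction rested on wild type replicate 2: without that array it was -0.16, and without wild type replicate 1 it was 0.74.

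SWEET2 (AT3G14770), a transporter of the vacuolar membrane known for retaining sugar in roots, was at 4.09 and 4.82 in gl3 egl3 and at 4.02 and 3.52 in wild type. Both gl3 egl3 arrays lay above both wild type arrays, narrowly so for replicate 1 of either group. The gl3 egl3 mean was 4.46 ± 0.52, against 3.77 ± 0.35 for wild type (SD, n = 2 each). The difference of 0.69 was the largest positive value among the 17 genes, but its SE was 0.39 and its interval ran from -0.64 to 2.02 (limma adjusted p = 0.793). Leaving out gl3 egl3 replicate 2 gave 0.32, and leaving out gl3 egl3 replicate 1 gave 1.05. After adding 16 on the linear scale, which damps dim probe sets, it was 0.36. The root marker PYK10 was also highest on gl3 egl3 replicate 2, at 11.04, and lowest on gl3 egl3 replicate 1, at 10.04. The wild type arrays lay between these, at 10.75 and 10.64, and both had lower SWEET2 values than gl3 egl3 replicate 1. Whether the PYK10 and SWEET2 values are linked was not tested. SWEET3 (AT5G53190), the third gene of the clade, lay at the low end, at 2.34 on all 4 arrays. Its neighbour in the genome is TRY, a single-repeat MYB gene of trichome patterning, which lay between 2.36 and 2.48.

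Of clade II, only SWEET4 was above the low end. SWEET4 (AT3G28007), a hexose transporter of the plasma membrane, was at 3.77 and 3.52 in gl3 egl3 and at 4.45 and 4.19 in wild type. The groups did not overlap, and the difference exceeded the gap within either group, which was 0.25 in gl3 egl3 and 0.27 in wild type. Mean levels were 3.64 ± 0.17 for gl3 egl3 and 4.32 ± 0.19 for wild type (SD, n = 2 each). The difference was -0.68 (SE 0.16, 95% interval -1.23 to -0.12), a level in gl3 egl3 of 0.626 times that in wild type. The unadjusted limma p was 0.0313 and the adjusted p 0.455, and over the alternatives the adjusted p ran from 0.269, with the arrays centred on their medians, to 0.679, in the methods' t-test. SWEET4 lies close to the low end, and with 16 added on the linear scale its difference was -0.34. The sign did not depend on a single array, with -0.54 to -0.81 when each was left out in turn, but the unadjusted p was then above 0.05 each time.

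The other clade II members, SWEET6 (AT1G66770), SWEET7 (AT4G10850) and SWEET8 (AT5G40260), lay between 2.17 and 2.22 on all arrays. SWEET8, also known as RPG1, is needed for pollen wall formation. Differences between -0.01 and 0.01 at this level say little, since the spread at the low end is compressed as well.

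Clade III holds the sucrose carriers. SWEET11 (AT3G48740), which with SWEET12 releases sucrose from phloem parenchyma in leaves, was at 10.18 and 9.53 in gl3 egl3 and at 9.83 and 9.99 in wild type. The wild type values lay between those of gl3 egl3. Wild type averaged 9.91 ± 0.12 and gl3 egl3 9.85 ± 0.46 (SD, n = 2 each), and the difference of -0.06 had a 95% interval from -1.07 to 0.95 (limma adjusted p = 0.962). The direction turned to 0.27 without gl3 egl3 replicate 2 and to 0.02 without wild type replicate 2. SWEET12 was not analysed here.

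SWEET10 (AT5G50790), a clade III gene linked to the floral transition, was at 3.27 and 3.43 in gl3 egl3 and at 4.31 and 3.47 in wild type. Both gl3 egl3 values were lower than both wild type values, but the replicate 2 arrays were nearly alike. The difference of -0.53 (SE 0.37, limma adjusted p = 0.793) rested on wild type replicate 1: it was -0.11 without that array, and -0.95 with wild type replicate 2 left out instead. With 16 added on the linear scale it was -0.25. SWEET13 (AT5G50800), which lies next to SWEET10 in the genome, was at 2.23 and 2.22 in gl3 egl3 and at 2.34 and 2.23 in wild type. Its difference of -0.06 was -0.0046 without wild type replicate 1. In both neighbouring genes wild type replicate 1 gave the highest value. The nectary gene SWEET9 (AT2G39060) and SWEET14 (AT4G25010), which like SWEET13 can carry gibberellin as well as sucrose, lay between 2.17 and 2.21 on all arrays.

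**Figure D2:**
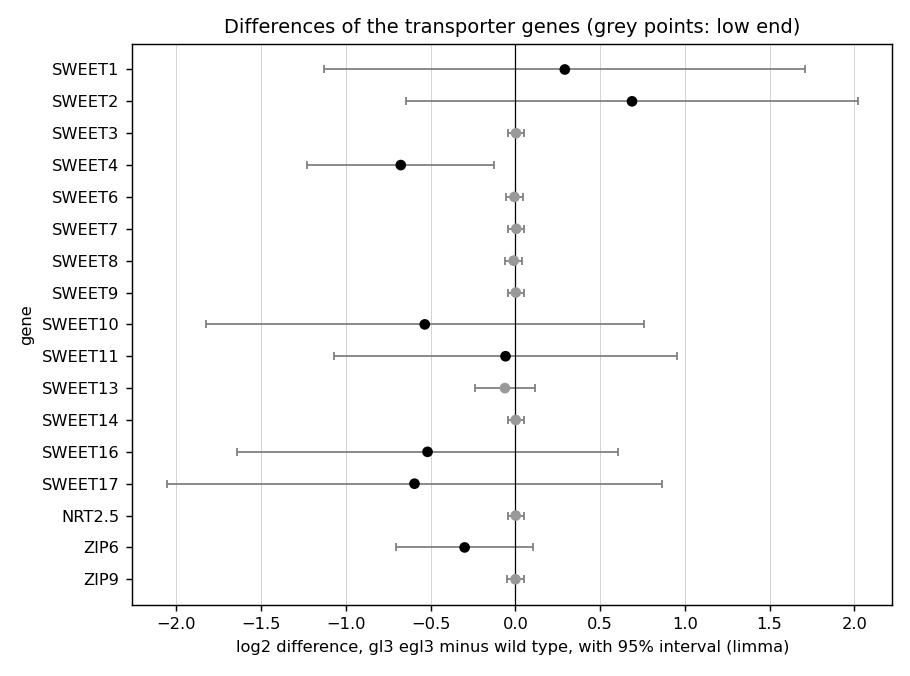
Log2 difference, gl3 egl3 minus wild type (x axis), of the 17 transporter genes (y axis), with the 95% interval of the limma fit as a bar, n = 2 arrays per group. SWEET4 alone has an interval that leaves out 0, from -1.23 to -0.12. Intervals of the grey points are short because values at the low end are compressed.

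Clade IV, of the vacuolar membrane, was the only clade with all of its members above the low end. SWEET17 (AT4G15920), a fructose transporter that sets the fructose content of leaf vacuoles, was at 6.26 and 5.87 in gl3 egl3 and at 7.11 and 6.22 in wild type. Wild type replicate 1 stood above the other 3 arrays, and wild type replicate 2 lay between those of gl3 egl3. Wild type averaged 6.66 ± 0.63 and gl3 egl3 6.07 ± 0.28 (SD, n = 2 each). The difference of -0.60 (SE 0.42, limma adjusted p = 0.793) was smaller than the gap of 0.89 between the wild type arrays, and it shrank to -0.15 without wild type replicate 1 but was -1.04 with replicate 2 left out instead.

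SWEET16 (AT3G16690), which carries glucose, fructose and sucrose, was at 3.13 and 3.66 in gl3 egl3 and at 3.65 and 4.18 in wild type. Replicate 2 was the higher array in both groups, by 0.53 and 0.52, and the groups just overlapped. The difference was -0.52 (SE 0.32, 95% interval -1.64 to 0.60), and -0.23 with 16 added on the linear scale. It was -0.26 when gl3 egl3 replicate 1 or wild type replicate 2 was left out, and -0.78 when either of the other arrays was. With the replicate number as a block the unadjusted limma p was 0.00344, with an adjusted p of 0.344. The labels do not say that a number marks plants grown together.

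Among the 14 SWEET genes, 8 had lower and 3 higher values in gl3 egl3 at 2 decimals, and 3 differed by 0.00. Of the 7 above the low end, 5 were lower and 2 higher, whereas 56.7% of all probe sets with a mean of 3 or more were higher. Their differences ranged from -0.68 to 0.69, and 6 of the 7 were smaller than the gap between replicate arrays in at least 1 group. Above the low end, the clade I genes SWEET1 and SWEET2 had positive differences and the genes of clades II, III and IV negative ones. Clade II rested on SWEET4 alone, and the clades were assigned after the values were seen. The signs of SWEET1 and SWEET11 each turned when a single array was left out, and none of these genes passed the adjusted threshold.

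The remaining members carry ions. ZIP6 (AT2G30080), of the ZRT/IRT-like family of metal transporters, was at 5.199 and 4.997 in gl3 egl3 and at 5.485 and 5.311 in wild type. The groups did not overlap, and the difference was larger than the gaps of 0.20 and 0.17 within them. Wild type averaged 5.40 ± 0.12 and gl3 egl3 5.10 ± 0.14 (SD, n = 2 each). The difference was -0.30 (SE 0.12, 95% interval -0.70 to 0.10, limma adjusted p = 0.652). It kept its sign when each array was left out, with values from -0.20 to -0.40. ZIP9 (AT4G33020), which is induced under zinc deficiency, was at 2.20 to 2.21, and NRT2.5 (AT1G12940), a high-affinity nitrate transporter gene induced by nitrogen starvation, at 2.17 on all 4 arrays.

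Counted over the 17 genes, both gl3 egl3 arrays lay above both wild type arrays in 5 genes, against 38.1% of all probe sets, and below them in 5 genes, against 12.7%. Of these 10 genes, 4 higher and 2 lower ones were at the low end, where they differed by 0.06 or less and where gl3 egl3 replicate 2 gave the highest value in 52.2% of all probe sets. Among the 8 genes above it, SWEET2 was higher without overlap, and SWEET4, SWEET10 and ZIP6 were lower. The shares of all probe sets with a mean of 3 or more were 28.9% higher and 17.8% lower. Wild type replicate 1 gave the highest value in 5 of the 8 genes (SWEET1, SWEET4, SWEET10, SWEET17 and ZIP6) and the lowest in 0, while gl3 egl3 replicate 2 gave the lowest in 4. The part of single arrays in these values, beyond leaving each out, was not tested.

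**Figure D3:**
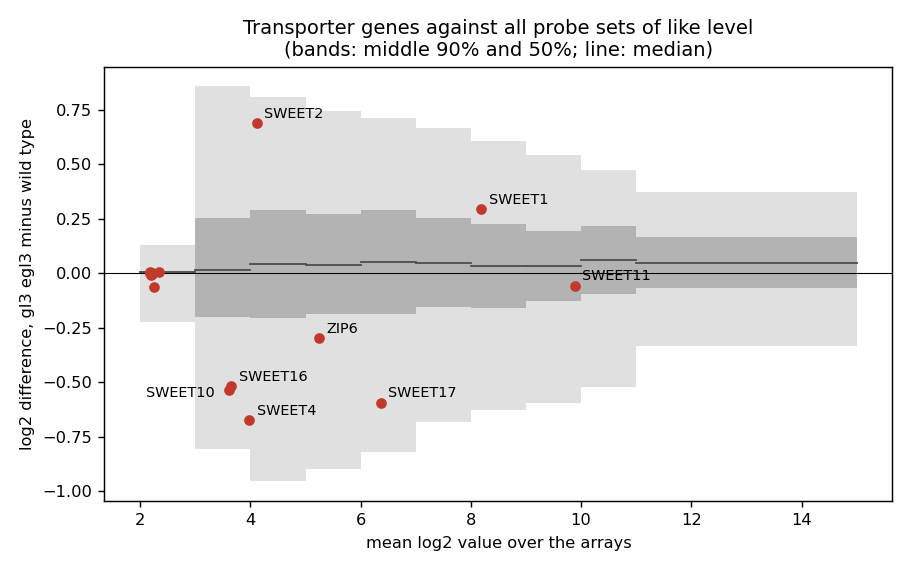
Log2 difference, gl3 egl3 minus wild type (y axis), against the mean log2 value over the 4 arrays (x axis) for the 17 transporter genes (red), over the spread of all probe sets of like level (light grey, middle 90%; dark grey, middle 50%; line, median). All 17 genes lie within the middle 90% of probe sets of their level, but above the low end SWEET11 alone lies within the middle 50%.

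Above the low end, the differences lay within the middle 90% of probe sets of like level, but SWEET11 alone lay within the middle 50%. Among probe sets with a mean from 3 to 4, the middle 90% of differences ran from -0.81 to 0.86, and from 4 to 5 it ran from -0.95 to 0.81, which includes SWEET2, SWEET4, SWEET10 and SWEET16. From 6 to 7 it ran from -0.82 to 0.71, around SWEET17. The middle 50% was narrower, from -0.20 to 0.25 at a mean from 3 to 4. It ran from -0.21 to 0.29 from 4 to 5, and from -0.19 to 0.29 from 6 to 7. With 2 arrays a group the intervals were wide: in 6 of the 8 genes the 95% interval reached below a log2 difference of -1, and in 2 it reached above 1. In those genes a change of that size and direction could not be left out at this number of arrays. ZIP6 alone had an interval that reached neither limit, from -0.70 to 0.10.

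**Figure D4:**
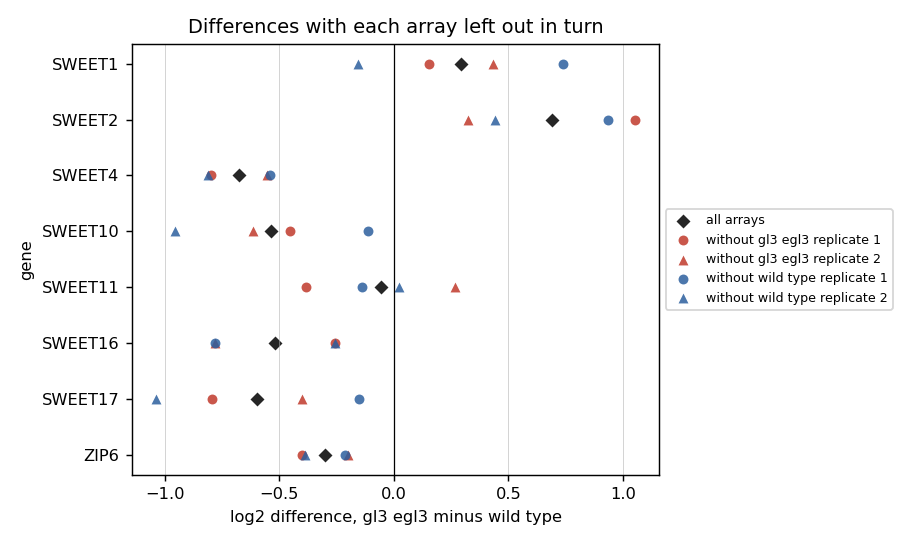
Log2 difference, gl3 egl3 minus wild type (x axis), of the 8 transporter genes above the low end (y axis) from all 4 arrays (black diamonds) and with each array left out in turn (red, a gl3 egl3 array; blue, a wild type array). SWEET1 and SWEET11 have values on both sides of 0, and SWEET10 and SWEET17 come nearest to 0 without wild type replicate 1, at -0.11 and -0.15.

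Some transporter genes of these families carry another symbol in the annotation and a fitting name only among their synonyms. They were added after the data were seen. Of 13 such genes, 2 belong to the SWEET family, which brings its genes with values to 16 of 17. SWEET15, listed as SAG29 and known from senescing leaves and from seeds, was at 4.37 and 2.44 in gl3 egl3 and at 2.43 and 2.46 in wild type. The value of gl3 egl3 replicate 1 stood alone above the low end, and the difference of 0.96 (SE 0.84) vanished without that array. SWEET5, listed as AtVEX1, a clade II gene known from the vegetative cell of pollen, lay between 2.23 and 2.32.

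The other 11 are NPF genes, of the nitrate and peptide transporter family, whose members also carry hormones and glucosinolates. NPF2.10 (GTR1, AT3G47960), a glucosinolate transporter that loads these defence compounds into the phloem, was at 8.52 and 8.15 in gl3 egl3 and at 8.97 and 8.76 in wild type. The groups did not overlap. The difference was -0.52 (SE 0.19, 95% interval -1.17 to 0.12), with an unadjusted limma p of 0.0796 and an adjusted p of 0.622, and it was -0.34 without gl3 egl3 replicate 2. Its partner NPF2.11 (GTR2, AT5G62680) was at 6.22 and 5.93 in gl3 egl3 and at 6.31 and 6.35 in wild type, again without overlap. That difference was -0.25 (SE 0.13, limma adjusted p = 0.758), and it was -0.11 without gl3 egl3 replicate 2.

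The 3 further NPF genes above the low end overlapped between the groups. NPF3.1 (AT1G68570), which transports gibberellin and nitrite, had a difference of 0.61 (SE 0.45), which ranged from 0.22 to 1.01 as single arrays were left out. For NPF6.2 (AT2G26690) it was -0.15 (SE 0.16), turning to 0.04 without gl3 egl3 replicate 2. For NPF6.4 (AT3G21670), a nitrate transporter gene, it was -0.24 (SE 0.19), and -0.08 with wild type replicate 2 left out or -0.09 with gl3 egl3 replicate 1 left out. The remaining 6, NPF4.1 to NPF4.5 and NPF5.13, lay between 2.16 and 2.51. In NPF4.1, NPF4.3, NPF4.4 and NPF4.5, wild type replicate 1 alone stood above the other 3 arrays, as at 2.50 against 2.16 to 2.17 in NPF4.5. Of the 5 NPF genes above the low end, 4 had lower values in gl3 egl3 and 1 a higher one. Of all probe sets with a mean of 3 or more, 56.7% were higher. At the low end 5 of the 6 NPF genes were lower and 1 higher, while the median difference of all low-end probe sets was 0.0042. Over all levels, not the low end alone, 62.8% of probe sets were higher. Of the 11 NPF genes, 0 differed at an unadjusted limma p under 0.05, against 9.31% of all probe sets.

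**Figure D5:**
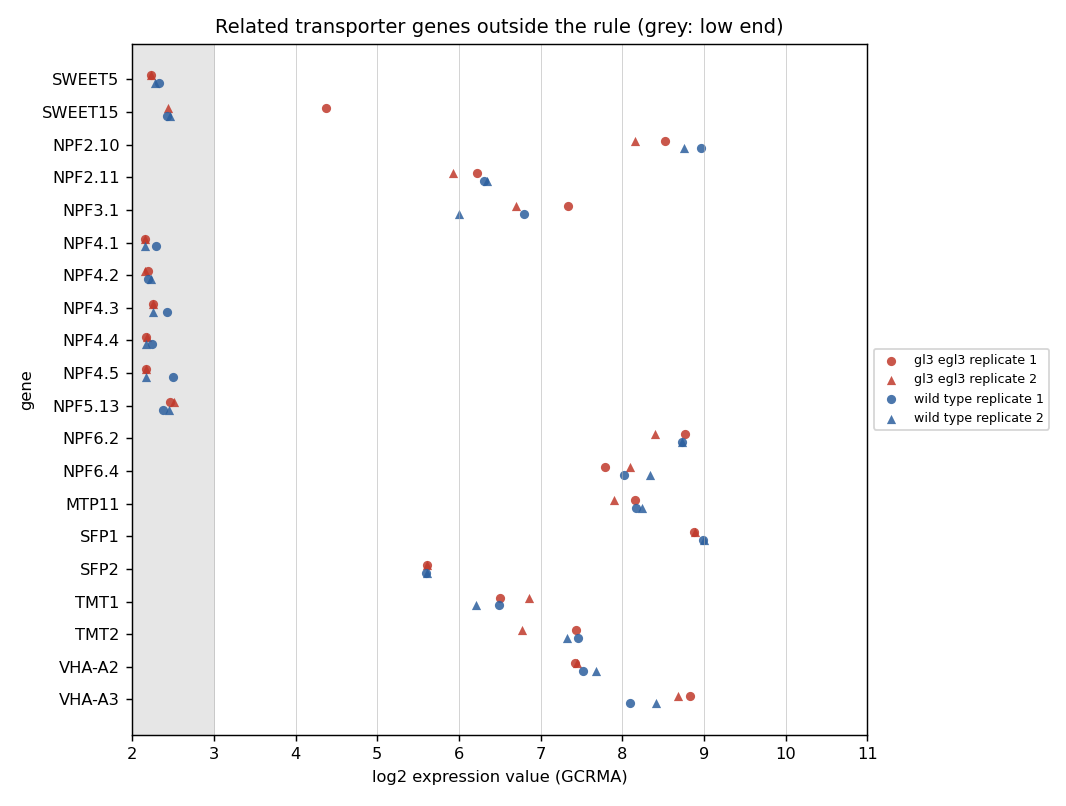
Log2 expression value (x axis) on the 4 arrays of the 13 genes named through a synonym and of 7 transporter genes of other families (y axis), with gl3 egl3 in red, wild type in blue, circles for replicate 1 and triangles for replicate 2. Among the 13, both gl3 egl3 arrays lie below both wild type arrays in 4 genes, NPF2.10 and NPF2.11 among them, and above in 1. Among the 7, they lie below in 3 and above in 3. The shares of all probe sets are 12.7% below and 38.1% above, or 17.8% and 28.9% at a mean of 3 or more. SWEET15 has 1 array far from the other 3.

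Sugar and ion carriers of families outside the rule were read from a list of 122 symbols, of which 7 had a named probe set. TMT1 and TMT2, which load monosaccharides into the vacuole, pointed in opposite directions. TMT1 was at 6.50 and 6.86 in gl3 egl3 and at 6.49 and 6.21 in wild type. Its groups lay apart by a narrow margin, and it differed by 0.33 (SE 0.20), or by 0.15 without gl3 egl3 replicate 2. The TMT2 difference was -0.29 (SE 0.30), but 0.04 without gl3 egl3 replicate 2. Neither passed the threshold, with limma adjusted p-values of 0.793 and 0.806.

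Of the vacuolar proton pump, VHA-A3 (AT4G39080), a subunit that acts at the vacuolar membrane, was at 8.82 and 8.68 in gl3 egl3 and at 8.10 and 8.41 in wild type. The groups did not overlap, and the difference was 0.49 (SE 0.15, 95% interval -0.03 to 1.02), with an unadjusted limma p of 0.0579 and an adjusted p of 0.566. Its close relative VHA-A2 (AT2G21410) pointed the other way, with -0.17 (SE 0.07), and with -0.09 when wild type replicate 2 was left out. The manganese transporter gene MTP11 also differed by -0.17 (SE 0.11), of which -0.05 was left without gl3 egl3 replicate 2.

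SFP1 (AT5G27350) is a gene of the monosaccharide transporter superfamily that is known from senescing leaves. It was the 1 gene of the 7 at an unadjusted limma p under 0.01, against 3.25% of all probe sets. It was at 8.8829 and 8.8834 in gl3 egl3 and at 8.9844 and 8.9955 in wild type, with a difference of -0.11 and an adjusted p of 0.292. Its SE of 0.0145 rests mainly on the spread shared over all probe sets, since the gl3 egl3 arrays were nearly identical. Its neighbour SFP2 (AT5G27360) lay between 5.59 and 5.61 on all arrays, with a difference of 0.01 that was -0.02 with the arrays centred on their medians.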

How the data were processed

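The authors deposited 1 table of log2 expression values per probe set, made with GCRMA from Affymetrix ATH1 arrays (AffylmGUI in R). GCRMA corrects background by probe sequence, which compresses dim values, equalises the arrays by quantiles and summarises the probes of a set. The sources used here name neither its version nor any other arrays normalized with these. The methods describe independent biological material for the array RNA. The number of arrays limits the precision.

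After 64 array controls were left out, 22746 probe sets were tested, of which the platform's annotation gives 13513 a single gene and 503 several, while 8730 stay unnamed. Symbols were updated by gene number through RefSeq (TAIR10.1, 13436 matched), which was used for names and neighbours only, so no coordinates are given. Probe identifiers in the study's gene list named EGL3 and 4 trichome markers. Each gene was read from its highest-mean probe set.

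Differences were fitted with limma 3.58.1 in R 4.3.3 (lmFit, eBayes, two-sided, all 4 arrays, no covariates), with Benjamini-Hochberg adjustment over all probe sets and a threshold of 0.05. There were 2 residual degrees of freedom, to which the prior added 0.623. The scripts were tested on simulated data.

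Genes were to be named if at an unadjusted p under 0.01 (SFP1), if among the largest differences of a class at a group mean of 5 or more (SWEET1, SWEET17 and ZIP6), or if on a short list (SWEET11). The other members, SWEET4 among them, and the other 6 listed transporters were named after their values were seen, to account for each. The members and lists were chosen with earlier results of these data known. The assignment of SWEET genes to clades and the use of synonyms were added after the values were seen. The alternatives were quantile normalization, median centring, 16 added on the linear scale, a filter at a mean of 5, the methods' t-test, robust variances with an intensity trend, a replicate block, leaving out each array, other ways of choosing probe sets, and other ways of choosing members.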

Additional observations from a re-analysis of the deposited data

How the results depend on the processing

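No gene named here passed the adjusted threshold under any alternative, as no probe set did, which says nothing about robustness. At an unadjusted p under 0.05, the count of the 17 genes was 2 with arrays centred on their medians (SWEET4 and ZIP6), 0 with the filter at a mean of 5, which leaves 4 of the genes, 0 in the methods' t-test, and 0 to 2 when an array was left out. At an unadjusted p under 0.01 it was 1 with centred arrays. The replicate number as a block gave 3 genes at the former level (SWEET4, SWEET16 and ZIP6) and 2 at the latter; deviations of same-numbered arrays correlated by 0.149, over only 2 pairs, so the numbers were not taken to pair the arrays. Over the whole array 740 probe sets had an unadjusted p under 0.01 and 2117 under 0.05. These counts were 476 under 0.01 with an intensity trend and robust variances together, 323 and 1403 in the methods' t-test, which called 0 after adjustment, and 547 to 1346 and 2311 to 3390 when an array was left out, with the highest of both without wild type replicate 1. The cause was not tested.

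Of 388 alternative values of single genes, 309 kept their direction at 2 decimals, 8 turned, and 71 had none because the gene was at 0.00 in the reported setting or the alternative. On leaving out an array, SWEET1 ranged from -0.16 to 0.74, SWEET11 from -0.38 to 0.27, SWEET15 from -0.0050 to 1.93, NPF6.2 from -0.33 to 0.0381 and TMT2 from -0.62 to 0.0424. With centred arrays SWEET7 was at -0.0275 and SFP2 at -0.0231, and SWEET3, SWEET9, SWEET14, NRT2.5 and ZIP9 moved from 0.00 to between -0.0323 and -0.0293. Choosing members by the platform's own symbols, by letters alone or with synonyms added changed no count.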
